A study of Mus musculus with 49 samples.

Results

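The 8 genes described here mark the nerve cells and glia of the gut wall: Elavl4, Uchl1, Ret, Vip and Snap25 for enteric neurons, and Gfap, S100b and Sox10 for enteric glia. They were taken by name and Entrez gene ID from a fixed list, as 8 of the 24475 genes in the deposited tables, and no measured value entered the choice. Messenger RNA was sequenced from 26 colon and 23 skin libraries of mice described as a DITRA model (DITRA is an inherited lack of the natural antagonist of the IL-36 receptor), of 75% C57BL/6NTac and 25% 129S6/SvEvTac background. All groups, water controls included, are of that model, so no group shows unmodified mice, and the labels do not give the alleles behind it. The colon groups were water with PBS (5 libraries), dextran sulfate sodium (DSS) with PBS (6), DSS with an antibody to the human IL-36 receptor, here anti-IL-36R (8), and DSS with an antibody to mouse IL-12p40, here anti-IL-12p40 (7). The skin groups were water with PBS (3), imiquimod (IMQ) with PBS (6), IMQ with anti-IL-36R (7) and IMQ with anti-IL-12p40 (7). DSS is a polymer that injures the colon lining, IMQ is a Toll-like receptor agonist that inflames skin, and IL-12p40 is a subunit shared by IL-12 and IL-23. The labels used here give no age, dose, time point or number of animals behind a library, so p-values measure the spread between libraries. The library numbers in the titles put the 5 colon water libraries in a run of their own and interleave the DSS groups. Whether that marks a batch is not given in the sources used here, and it cannot be told apart from DSS. In skin the numbers put water beside IMQ with PBS replicates 1 to 3 and anti-IL-36R beside replicates 4 to 6. The 7 skin anti-IL-12p40 libraries form a run with no PBS library, which cannot be told apart from that antibody.

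Enteric neurons sit in ganglia between the muscle layers and under the mucosa, are surrounded by glia, and control motility, secretion and blood flow. They arise from migrating neural crest cells that carry the receptor tyrosine kinase RET, whose ligand GDNF is made by the gut mesenchyme. VIP, a peptide transmitter of inhibitory motor and secretomotor neurons, relaxes smooth muscle, stimulates secretion and acts on receptors that raise cyclic AMP.

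Vip is the member on which the colon results turn, so its promoter is shown, as RefSeq gives it on GRCm38.p6 at chr10:5638968-5639217, plus strand, the 250 bases that end just before the transcript start listed with the promoter (5639218). That start lies inside the gene span, which RefSeq begins at 5639193, so the last 25 bases shown belong to the annotated gene. Capitals mark 2 motifs searched on both strands: TGACG, the core of the cyclic AMP response element, and TATAAA, the core of the TATA box.

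Vip promoter: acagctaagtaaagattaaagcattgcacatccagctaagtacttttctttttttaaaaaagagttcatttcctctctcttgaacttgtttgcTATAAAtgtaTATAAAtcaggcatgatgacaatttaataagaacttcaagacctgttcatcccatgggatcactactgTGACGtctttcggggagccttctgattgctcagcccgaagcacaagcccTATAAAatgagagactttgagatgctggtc

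TGACG begins 79 bases before the listed transcript start, and TATAAA begins 157, 147 and 30 bases before it. Counted from the start of the gene span, the same distances are 54 for TGACG and 132, 122 and 5 for TATAAA. Over 32851 promoter windows of the same length, 17.8% held TGACG and 12.4% held TATAAA. The letters ACAAAG (a SOX motif, in 16.5% of windows) and TTCNNNGAA (a STAT motif, in 7.0%) were not in this window. Promoters of 5 members were matched, and these matches describe letters only. TGACG was also found for Elavl4, in windows of different listed starts, beginning 57, 130 and 146 bases before them, though not in every Elavl4 window. The windows of Uchl1, Gfap and S100b held none of these motifs.

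Library totals were 15081670 to 18663357 expected counts in colon and 14723200 to 19678074 in skin. Levels are CPM, the counts-per-million scale, taken over the TMM-adjusted library total. The words rose, fell and changed are kept for genes where edgeR's quasi-likelihood test gave a Benjamini-Hochberg adjusted p under 0.05 over all genes tested in the tissue, 15731 in colon and 15345 in skin. All 8 members passed the low-count filter in colon and 5 did in skin. Fold changes are log2 values ± SE. The tissue labels were checked against markers: the 12 colon epithelium markers summed to 3915 to 58260 CPM in colon libraries and to 506.7 to 835.6 CPM in skin libraries. DSS with PBS replicates 5 and 6 had the highest levels in that group of every member but Ret, so values without each of them are given where a call changes.

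Vip was higher under DSS with PBS than in any other colon group, and with either antibody its level lay near that of the water controls. Vip (Entrez 22353, chromosome 10, 5639193 to 5647617) stood at 40.12, 36.94, 25.69, 45.1 and 36.44 CPM in the 5 water libraries. Under DSS with PBS its lowest, median and highest levels were 47.9, 60.68 and 121.5 CPM. All 6 DSS with PBS libraries lay above all 5 water libraries, and Vip was the only one of the 8 members without overlap between these groups, a separation that 13.1% of all tested genes showed. The means were 36.86 ± 7.13 CPM (SD, n = 5) and 75.14 ± 31.15 CPM (SD, n = 6). Vip rose by 1.03 ± 0.25 on the log2 scale (adjusted p = 0.00318).

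With anti-IL-36R, Vip ranged from 26.12 to 48.19 CPM with a median of 33.66 CPM. With anti-IL-12p40 it ranged from 22.75 to 59.12 CPM with a median of 33.35 CPM. In each antibody group only the highest library reached into the range of DSS with PBS, whose lowest library was at 47.9 CPM; the anti-IL-12p40 library at 59.12 CPM stood apart from the other 6 of its group. Against DSS with PBS, Vip fell by 1.10 ± 0.22 with anti-IL-36R (adjusted p = 0.00293) and by 1.10 ± 0.23 with anti-IL-12p40 (adjusted p = 0.0188). Both comparisons use the same 6 DSS with PBS libraries. The anti-IL-36R minus anti-IL-12p40 difference was 0.01 ± 0.21 (adjusted p = 0.9997), and the differences from water were -0.07 ± 0.23 (adjusted p = 0.889) and -0.08 ± 0.24 (adjusted p = 0.861). These last 3 values missed the threshold, which does not show equal levels.

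**Figure D1:**
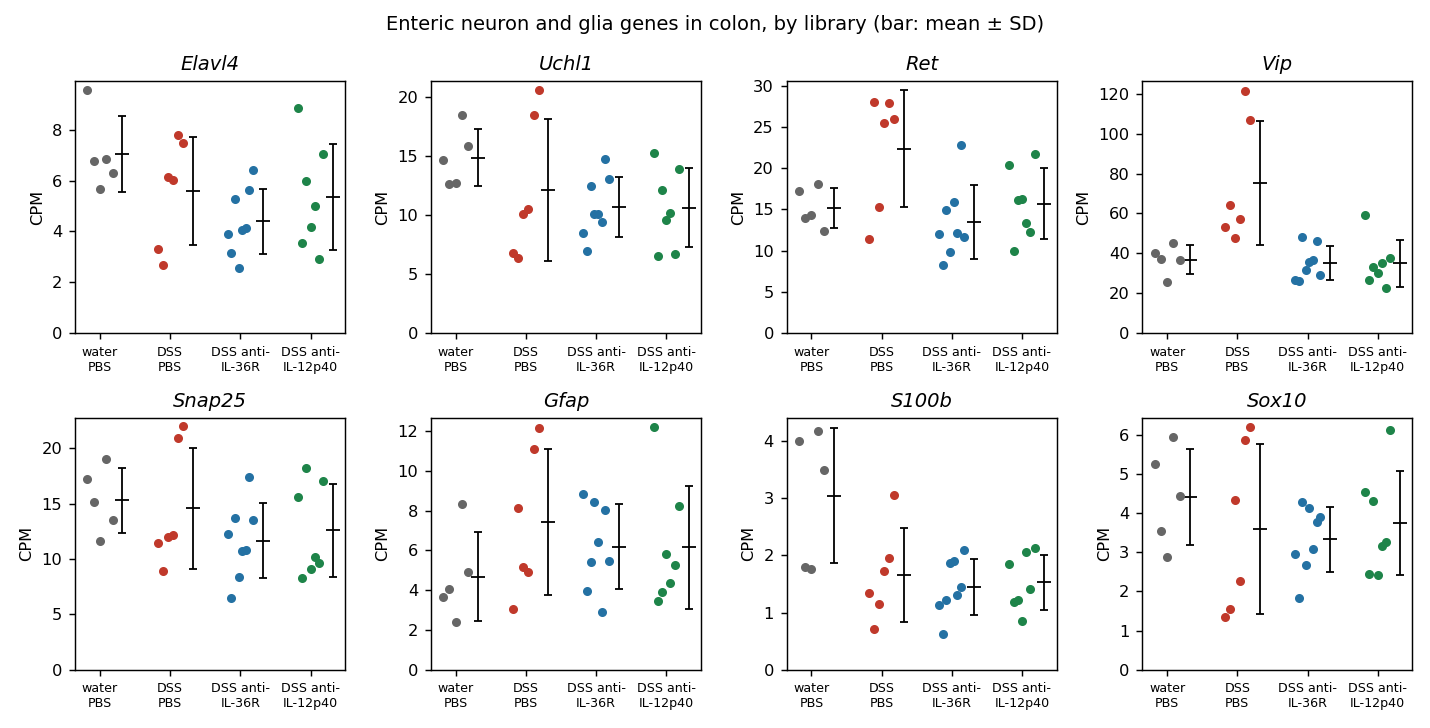
Level of each of the 8 genes (vertical axes, CPM, from 0) in every colon library, as points by group (horizontal axes); bars are mean ± SD over 5, 6, 8 and 7 libraries. For Vip all 6 DSS with PBS points, 47.9 CPM or more, lie above the 5 water points, while the other 7 genes overlap between these groups.

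The fall of Vip with anti-IL-12p40 was the less stable call. It missed the threshold without DSS with PBS replicate 5 (-0.93, adjusted p = 0.0809) or replicate 6 (-0.99, adjusted p = 0.0732) and without anti-IL-12p40 replicate 2, 3 or 4 (adjusted p = 0.0545, 0.0598 and 0.0552). It also missed it by limma-voom (-0.87, adjusted p = 0.353) and in a fit of those groups alone (-1.10, adjusted p = 0.321). With the mean log2 CPM of the colon epithelium markers as a covariate, Vip no longer passed under DSS (0.48, adjusted p = 0.228), with anti-IL-36R (-0.65, adjusted p = 0.319) or with anti-IL-12p40 (-0.73, adjusted p = 0.374). The summed epithelium markers were 13370 to 58260 CPM in water and 3915 to 21030 CPM under DSS with PBS. They were 13800 to 28020 CPM with anti-IL-36R and 12440 to 22390 CPM with anti-IL-12p40. The water mean was 22680 ± 19900 CPM (SD, n = 5), far below the highest water library. The other means were 12790, 17740 and 16940 CPM, in the same order. Under DSS with PBS 2 of the 12, Slc26a3 and Car1, fell, where 14.7% of all tested genes fell. The call of Car1 was lost without water replicate 4 (-1.67, adjusted p = 0.0694). With the smooth muscle markers as the covariate the rise of Vip was 1.28 (adjusted p = 0.00167). The part of tissue makeup in the level of Vip was not tested beyond these fits, and in bulk tissue fewer cells of a type and less RNA per cell cannot be told apart.

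Vip was therefore also set against each of the other 4 neuron members in the same library, a test chosen after the values were seen, and under DSS the ratios to Elavl4, Uchl1 and Snap25 passed while that to Ret missed the threshold. The geometric mean ratio of Vip to Uchl1 was 2.47 in water (2.02 to 2.93), 6.42 under DSS with PBS (4.74 to 10.15), 3.30 with anti-IL-36R (2.26 to 3.90) and 3.31 with anti-IL-12p40 (2.72 to 4.06). No DSS with PBS library overlapped a library of another group in this ratio. The log2 ratio was higher by 1.38 ± 0.19 under DSS than in water (exact permutation test, two-sided, p = 0.00433, the smallest 6 against 5 libraries can give; adjusted p = 0.0108 over 20 tests). It was lower by 0.96 with each antibody than with PBS (-0.96 ± 0.19 for both; exact permutation p = 0.000666 and 0.00117, adjusted p = 0.00666 for both). The antibody groups had a ratio above water by 0.42 ± 0.13 each (exact permutation, adjusted p = 0.0311 with anti-IL-36R and 0.0254 with anti-IL-12p40).

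The same ratio to Snap25 went from 2.41 in water to 5.11 under DSS with PBS (log2 difference 1.09 ± 0.13), and was 3.06 with anti-IL-36R and 2.79 with anti-IL-12p40. The ratio to Elavl4 went from 5.24 to 13.6 (1.37 ± 0.26), and was 8.11 and 6.67 with the antibodies. All 9 comparisons of DSS with PBS with another group, over these 3 ratios, passed after adjustment. In the ratio to Elavl4 anti-IL-36R differed from water (exact permutation, adjusted p = 0.0254) and anti-IL-12p40 missed the threshold (exact permutation, adjusted p = 0.0505). In the ratio to Snap25 both missed it (exact permutation, adjusted p = 0.0829 and 0.297).

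The ratio of Vip to Ret was 2.41 in water (1.80 to 2.95) and 3.32 under DSS with PBS (2.24 to 4.62), with overlap. Its log2 difference of 0.46 ± 0.23 missed the threshold (exact permutation, adjusted p = 0.125). With anti-IL-36R it was 2.66 (-0.32 ± 0.21 against PBS; exact permutation, adjusted p = 0.175), and with anti-IL-12p40 it was 2.20 (-0.59 ± 0.22; exact permutation, adjusted p = 0.0394). Neither antibody group passed against water in this ratio (exact permutation, adjusted p = 0.391 and 0.454).

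**Figure D2:**
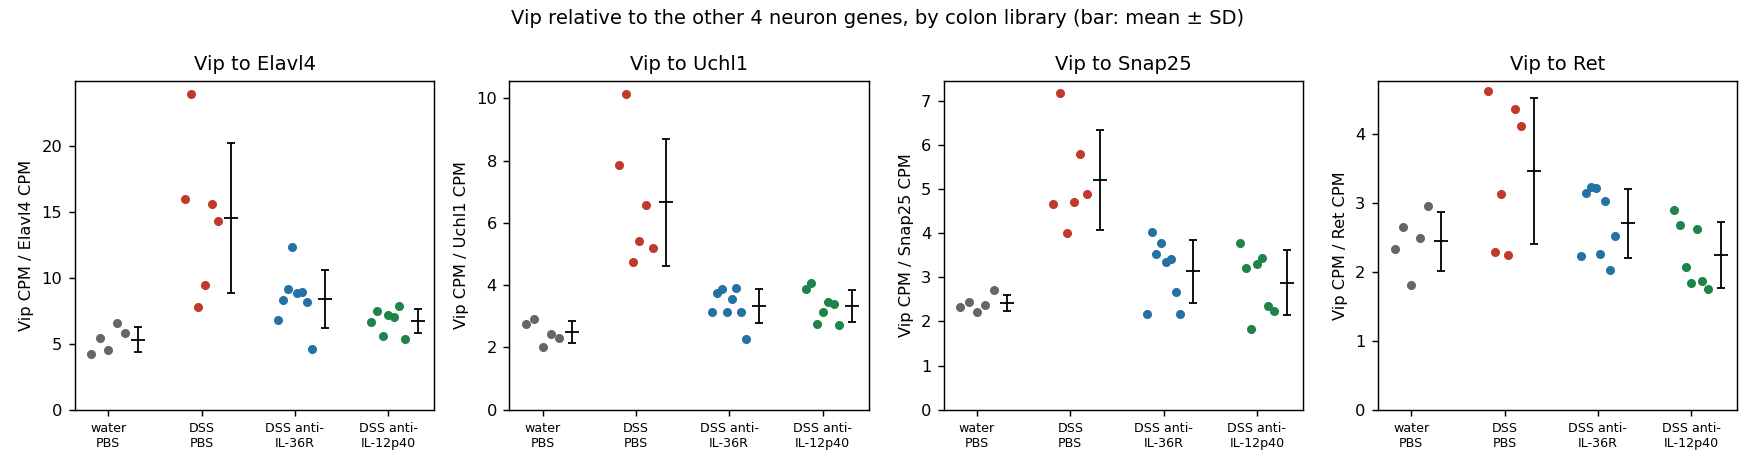
Ratio of Vip CPM to Elavl4, Uchl1, Snap25 or Ret CPM (vertical axes, from 0) in each colon library by group; bars are the arithmetic mean ± SD. In the ratio to Uchl1 the 6 DSS with PBS libraries, 4.74 to 10.15, lie above every library of the other 3 groups, while in the ratio to Ret the groups overlap.

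Ret, the receptor tyrosine kinase for GDNF on which enteric neuron precursors depend, was lower with anti-IL-36R than with PBS under DSS. Ret (Entrez 19713, chromosome 6, 118151748 to 118197744) stood at 17.22, 13.96, 14.26, 18.1 and 12.36 CPM in water. Under DSS with PBS its lowest, median and highest levels were 11.46, 25.76 and 28.05 CPM, with 4 libraries above 25 CPM and 2 within or below the water range. The difference from water was 0.56 ± 0.25 (adjusted p = 0.0854). Without DSS with PBS replicate 1, the lowest, it passed at 0.71 (adjusted p = 0.0231), and with the smooth muscle covariate at 0.91 (adjusted p = 0.0103).

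With anti-IL-36R, Ret lay at 8.31 to 22.8 CPM with a median of 12.05 CPM and fell by 0.74 ± 0.22 against PBS (adjusted p = 0.0416). With anti-IL-12p40 it lay at 9.93 to 21.67 CPM with a median of 16.15 CPM, and the difference was -0.51 ± 0.22 (adjusted p = 0.35). The antibodies differed by -0.23 ± 0.21, which missed the threshold, so the call with one antibody and not the other does not show a difference between them. It does not show equal levels either. The fall with anti-IL-36R missed the threshold when any 1 of 9 libraries was left out: DSS with PBS replicate 2, 4, 5 or 6, or anti-IL-36R replicate 1, 2, 4, 6 or 8 (adjusted p = 0.0616 to 0.11). It missed it too by limma-voom (-0.60, adjusted p = 0.116), in a fit of those groups alone (-0.74, adjusted p = 0.119) and with the epithelium covariate (-0.53, adjusted p = 0.564).

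The neuron genes Elavl4, Uchl1 and Snap25 did not pass in any of the 6 colon comparisons. Elavl4 (Entrez 15572, chromosome 4, 110203737 to 110351939) encodes the RNA-binding protein HuD. It stood at 9.57, 6.76, 5.66, 6.86 and 6.30 CPM in water, and at a lowest, median and highest of 2.69, 6.08 and 7.81 CPM under DSS with PBS (-0.33 ± 0.29, adjusted p = 0.403). With anti-IL-36R it had its lowest mean, 4.39 ± 1.30 CPM (SD, n = 8), 7 of 8 libraries lying below the lowest water library. That difference from water, -0.68 ± 0.27, missed the threshold by edgeR (adjusted p = 0.116) and passed by limma-voom (-0.74, adjusted p = 0.0127) and in a fit of those groups alone (-0.68, adjusted p = 0.0425). With anti-IL-12p40 the mean was 5.36 ± 2.09 CPM (SD, n = 7).

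Uchl1 (Entrez 22223, chromosome 5, 66676121 to 66687234), the neuronal ubiquitin hydrolase known as PGP9.5, stood at 12.61 to 18.45 CPM in water and at 6.33 to 20.61 CPM under DSS with PBS. The DSS with PBS libraries split into 4 at or below 10.52 CPM, all under the lowest water library, and replicates 5 and 6 at 18.46 and 20.61 CPM. The difference was -0.29 ± 0.27 (adjusted p = 0.444), and with the epithelium covariate it was -0.90 (adjusted p = 0.0427). With anti-IL-36R and anti-IL-12p40 the means were 10.65 ± 2.55 CPM (SD, n = 8) and 10.61 ± 3.35 CPM (SD, n = 7).

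Snap25 (Entrez 20614, chromosome 2, 136713439 to 136782428), a SNARE protein of synaptic vesicle fusion, averaged 15.3 ± 2.92 CPM in water (SD, n = 5) and 14.56 ± 5.48 CPM under DSS with PBS (SD, n = 6). The difference was -0.07 ± 0.26 (adjusted p = 0.862). Under DSS with PBS, replicates 5 and 6 stood at 20.95 and 21.98 CPM and the other 4 libraries at 8.95 to 12.13 CPM. The antibody groups averaged 11.65 ± 3.38 CPM (SD, n = 8) and 12.58 ± 4.18 CPM (SD, n = 7), with differences from PBS of -0.32 ± 0.23 and -0.21 ± 0.24. The first of these passed with the smooth muscle covariate (-0.69, adjusted p = 0.0448).

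The 3 glia genes did not move as a group: S100b was lower in every DSS group than in water, while Gfap and Sox10 did not pass. S100b (Entrez 20203, chromosome 10, 76253836 to 76261319), a calcium-binding glial protein, stood at 4.01, 1.80, 1.76, 4.17 and 3.50 CPM in water. Under DSS with PBS its lowest, median and highest levels were 0.716, 1.53 and 3.07 CPM. The water libraries split into 3 above and 2 within the range of the other groups. S100b fell by 0.87 ± 0.33 under DSS with PBS (adjusted p = 0.0481), by 1.06 ± 0.31 with anti-IL-36R (adjusted p = 0.0306) and by 0.98 ± 0.32 with anti-IL-12p40 (adjusted p = 0.0357), all against the same water libraries. Between the antibody groups and DSS with PBS it differed by -0.19 ± 0.30 and -0.11 ± 0.31.

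S100b rests on 168 to 245 counts per group, the fewest of the 8 genes. The fall under DSS with PBS missed the threshold with DESeq2 size factors (adjusted p = 0.0533), with no low-count filter (0.0674), by limma-voom (0.0726), in a fit of the 2 groups alone (0.133) and with the smooth muscle covariate (-0.41, adjusted p = 0.373). It was also lost without water replicate 1, 4 or 5 or DSS with PBS replicate 1, 2, 3, 4 or 5 (adjusted p = 0.0663 to 0.118). The 12 smooth muscle markers summed to 7508 to 15290 CPM in water and 4970 to 8400 CPM under DSS with PBS, and 5 of them fell, among them Myh11 (-0.91 ± 0.26, adjusted p = 0.01). Without water replicate 1, 4 or 5 the falls with the antibodies missed the threshold too (adjusted p = 0.0709 to 0.0991). The fall with anti-IL-36R was also lost without anti-IL-36R replicate 1, 2, 3 or 6 (adjusted p = 0.0516 to 0.0532). The fall with anti-IL-12p40 was lost without anti-IL-12p40 replicate 2, 3, 4 or 6 (adjusted p = 0.0581 to 0.068) and with the smooth muscle covariate (-0.73, adjusted p = 0.0836).

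Gfap (Entrez 14580, chromosome 11, 102887336 to 102897200), the intermediate filament of glia, stood at 2.40 to 8.34 CPM in water and at 3.06 to 12.15 CPM under DSS with PBS, with wide overlap. Its difference was 0.67 ± 0.38 (adjusted p = 0.182). The antibody groups averaged 6.18 ± 2.14 CPM (SD, n = 8) and 6.16 ± 3.09 CPM (SD, n = 7), each -0.27 from DSS with PBS. Sox10 (Entrez 20665, chromosome 15, 79154913 to 79164490), the transcription factor that maintains enteric glia, averaged 4.41 ± 1.24 CPM in water (SD, n = 5) and 3.59 ± 2.16 CPM under DSS with PBS (SD, n = 6), a difference of -0.29 ± 0.34 (adjusted p = 0.549). Its antibody group means were 3.33 ± 0.84 CPM (SD, n = 8) and 3.75 ± 1.33 CPM (SD, n = 7). Sox10 values were not whole in 24 of 26 colon libraries, so part of its reads were divided among genes by the counting.

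Counted together, 1 of the 8 members rose and 1 fell under DSS with PBS, where 17.6% of all tested genes rose and 14.7% fell (32.2% called in all). With anti-IL-36R against PBS 2 fell (5.45% of all genes fell; 6.6% were called), and with anti-IL-12p40 against PBS 1 fell (1.13% fell; 1.15% were called). Against water, 1 member fell with anti-IL-36R, where 3.01% of genes fell and 9.92% were called, and 1 with anti-IL-12p40, where 6.4% fell and 17.2% were called. Between the antibodies no gene of any kind passed by edgeR, DESeq2 or limma-voom (0% called; 552 genes, 3.51%, had an unadjusted p under 0.05). The medians of the 8 log2 fold changes in the first 3 of these comparisons were -0.18, -0.29 and -0.20, beside -0.035, 0.0037 and 0.002 over all tested genes.

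**Figure D3:**
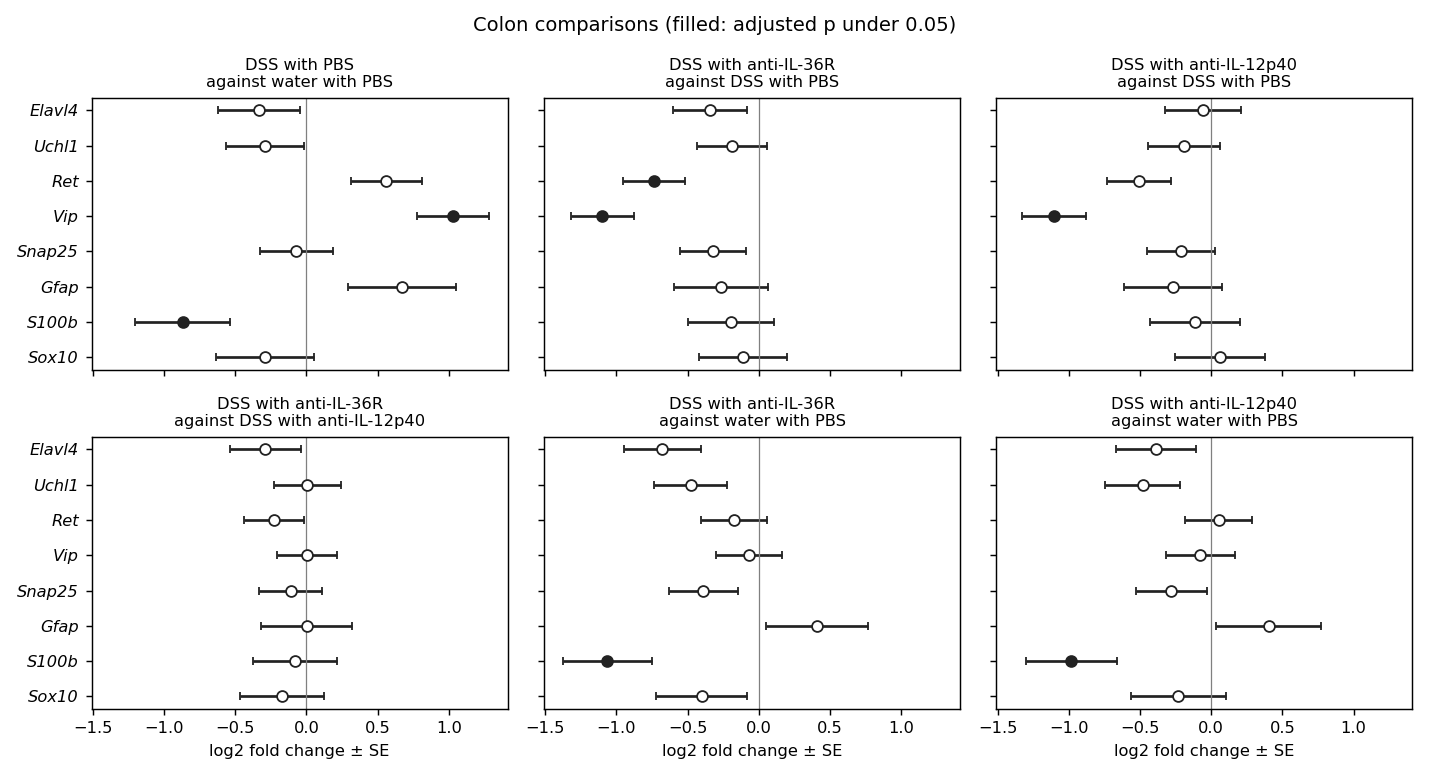
Log2 fold change ± SE (horizontal axes) of each member (vertical axes) in 6 colon comparisons; filled points passed an adjusted p under 0.05. Vip lies at 1.03 under DSS and at -1.10 with each antibody against PBS, and S100b is the member below 0 and filled in all 3 comparisons with water.

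Per kilobase of annotated exon, Vip was the most abundant of the 8 in water colon at 10.8 CPM per kb, with Uchl1 next at 9.10. Snap25 and Ret were each near 2.25 CPM per kb, followed by S100b at 2.05, Sox10 at 1.45, Elavl4 at 1.31 and Gfap at 1.11. Under DSS with PBS the same measure was 22.1 for Vip and 7.43 for Uchl1. Exon length counts all annotated isoforms, so these values only order the genes coarsely.

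Other genes of the enteric nervous system were followed through lists chosen with earlier results of these data known. Of all tested genes, 17.6% rose and 14.7% fell under DSS with PBS. Against PBS 5.45% fell with anti-IL-36R and 1.13% with anti-IL-12p40. The list counts below stand beside these shares, and no list was tested as a set. Among neurotransmitter and neuropeptide genes, 14 of 18 were tested, and 6 rose and 4 fell under DSS with PBS, with a median of 0.19. The peptide genes that rose with the lowest p were Tac1, the precursor of substance P (1.43 ± 0.26, adjusted p = 0.000206), Cartpt, the CART prepropeptide (2.73 ± 0.54, adjusted p = 0.000492), and Penk, the enkephalin precursor (1.56 ± 0.32, adjusted p = 0.000645). Nmu, encoding neuromedin U, fell by 3.08 ± 0.42 (adjusted p = 6.71e-06). Chat, the acetylcholine-synthesising enzyme, fell by 1.01 ± 0.38 (adjusted p = 0.0432), a call lost without water replicate 4 (-0.66, adjusted p = 0.188) or 5 or DSS with PBS replicate 1, 2 or 4. The other cholinergic genes, Slc18a3 (0.23 ± 0.40) and Slc5a7 (0.16 ± 0.34), missed the threshold, and Calb2 (-1.14 ± 0.25) and Grp (-1.66 ± 0.43), named after their values were seen, were the others that fell.

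Penk stood at 6.25 to 13.01 CPM in water and at 14.01 to 48.81 CPM under DSS with PBS, without overlap. Tac1 separated likewise, at 9.50 to 16.47 CPM against 21.93 to 45.24 CPM. Cartpt stood at 0.427 to 1.20 CPM against 1.72 to 7.34 CPM. Nos1, the nitric oxide synthase of inhibitory motor neurons that often also hold VIP, averaged 32.5 ± 6.8 CPM in water (SD, n = 5) and 35.2 ± 19.7 CPM under DSS with PBS (SD, n = 6), a difference of 0.12 ± 0.33 (adjusted p = 0.818). Gal (1.69 ± 0.46), Npy (1.75 ± 0.48) and Calcb (2.83 ± 1.07), named after their values were seen, were the others that rose. Calcb rested on 1 library, replicate 6 at 70.3 CPM against 0.0597 to 1.42 CPM in the other 5; without it the difference was -1.32 (adjusted p = 0.0529). Its call was also lost without water replicate 1, 2, 3 or 5.

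With anti-IL-36R against DSS with PBS, 5 genes of that list fell and 1 rose (median -0.69). Penk fell by 1.18 ± 0.27 (adjusted p = 0.00881), Gal by 1.53 ± 0.39 (adjusted p = 0.0179), Npy by 1.60 ± 0.41 (adjusted p = 0.0178) and Cartpt by 1.70 ± 0.44 (adjusted p = 0.0183). Nmu rose by 1.65 ± 0.39 (adjusted p = 0.0107), and Calcb, which fell by 3.85, stood at 0.30 without the library at 70.3 CPM (adjusted p = 0.82). Without DSS with PBS replicate 6 the list had 2 falls, Npy, Cartpt and Calcb being lost, and without replicate 5 it had 3, Gal and Cartpt being lost. It had 0 falls by limma-voom and with the epithelium covariate, 2 in a fit of those groups alone, and 8 with the smooth muscle covariate. With anti-IL-12p40 2 genes fell, Gal (-1.86 ± 0.41, adjusted p = 0.0283) and Cartpt (-1.82 ± 0.46, adjusted p = 0.0489). The list had 0 falls by limma-voom, with the epithelium covariate, or without DSS with PBS replicate 2, 5 or 6 or anti-IL-12p40 replicate 2, 3 or 4. It had 4 without DSS with PBS replicate 1. The call of Cartpt was lost without any 1 of anti-IL-12p40 replicates 1 to 7. In a fit of those groups alone no gene of any kind passed. For DSS against water the list had 4 rises and 2 falls by limma-voom, and 2 rises and 3 falls with the epithelium covariate. Tac1 passed against PBS with neither antibody. It lay at 11.33 to 39.47 CPM with anti-IL-36R and at 15.69 to 32.65 CPM with anti-IL-12p40.

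**Figure D4:**
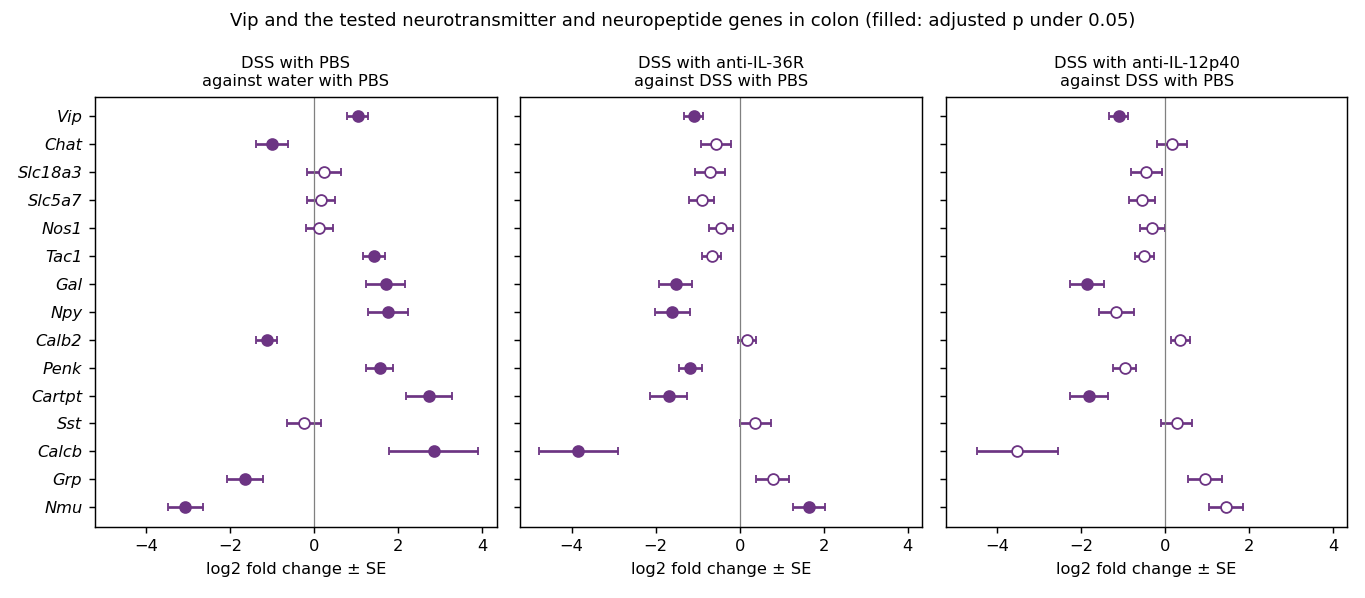
Log2 fold change ± SE (horizontal axes) of Vip and the 14 tested neurotransmitter and neuropeptide genes (vertical axes) in 3 colon comparisons that share the DSS with PBS libraries; filled points passed an adjusted p under 0.05. Vip, Tac1, Gal, Npy, Penk, Cartpt and Calcb are filled above 0 in the first panel, Calcb through 1 library.

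Of 15 pan-neuronal genes tested, 1 fell and 0 rose under DSS with PBS (median -0.24): Map2, a dendritic microtubule protein, fell by 1.57 ± 0.24 (adjusted p = 2.37e-05), its mean being 18.9 ± 4.43 CPM in water (SD, n = 5) and 6.36 ± 2.25 CPM under DSS with PBS (SD, n = 6). Elavl3 (-0.67 ± 0.31) and Tubb3 (0.56 ± 0.29) missed the threshold. With anti-IL-36R against PBS, Tubb3, a neuronal tubulin, fell by 1.08 ± 0.26 (adjusted p = 0.0107), a call lost without DSS with PBS replicate 6 (-0.82, adjusted p = 0.0621), and with anti-IL-12p40 no pan-neuronal gene passed. Of 17 synaptic vesicle genes, 3 rose and 2 fell under DSS with PBS (median -0.08), where 17.6% of all tested genes rose and 14.7% fell. Snap23, a relative of Snap25 found in many cell types, rose by 0.48 ± 0.10 (adjusted p = 0.000707), the syntaxin gene Stx1a by 1.03 ± 0.23 (adjusted p = 0.0015) and Nsf, the ATPase that takes SNARE complexes apart, by 0.50 ± 0.12 (adjusted p = 0.00268). The synapsin gene Syn2 fell by 1.01 ± 0.25 (adjusted p = 0.00316) and the complexin gene Cplx2 by 0.45 ± 0.14 (adjusted p = 0.0126).

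Of 15 tested enteric glia genes, 3 rose and 3 fell under DSS with PBS (median -0.11), where 17.6% of all tested genes rose and 14.7% fell. Gpm6b, a membrane glycoprotein of neurons and glia, rose by 1.82 ± 0.33 (adjusted p = 0.00019) and Ttyh1 by 1.02 ± 0.28 (adjusted p = 0.00675). Entpd2, a glial ectonucleotidase, fell by 0.45 ± 0.12 (adjusted p = 0.00722) and Kcna1 by 1.29 ± 0.37 (adjusted p = 0.00965). The other riser, Fabp7 (1.43 ± 0.51, adjusted p = 0.0324; named after its value was seen), rested on DSS with PBS replicate 6, without which it stood at 0.50 (adjusted p = 0.318), and was also lost without water replicate 2, 3 or 4. Erbb3, a neuregulin receptor also found in epithelium, fell by 0.64 ± 0.22 (adjusted p = 0.0321), a call lost without DSS with PBS replicate 5 or 6 or water replicate 2, 3 or 4. With anti-IL-36R against PBS 1 of the 15 fell, Gpm6b (-1.17 ± 0.28, adjusted p = 0.0112), a call lost without DSS with PBS replicate 5 (-0.90, adjusted p = 0.0548) or 6, and with anti-IL-12p40 none passed.

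Of the genes known from activated glia, 11 of 12 rose under DSS with PBS (median 3.77), led by Lcn2 (7.67 ± 0.81, adjusted p = 9.16e-07), and their summed level went from 425 to 556 CPM in water to 924 to 3530 CPM. These genes are also expressed by leukocytes, epithelium and stroma. Beside them, 11 of 12 leukocyte markers rose, from a sum of 96.1 to 245 CPM to 697 to 3291 CPM. With anti-IL-36R against PBS 6 of each list fell, and with anti-IL-12p40 4 and 2 did. The anti-IL-36R falls of Serpina3n, Cd14 and Ptprc were each lost without DSS with PBS replicate 5 or 6 (Cd14 -0.72, adjusted p = 0.151 without replicate 5). So were the anti-IL-12p40 falls of Ccl2 and Timp1 (Ccl2 -1.61, adjusted p = 0.168 without replicate 6). With anti-IL-12p40 no gene passed by limma-voom or in a fit of those groups alone. The part of leukocytes in the activated glia list was not tested.

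Of 11 genes of GDNF and endothelin signalling, 2 rose under DSS with PBS, where 17.6% of all tested genes rose. They were Artn, the artemin ligand of the RET co-receptor Gfra3 (1.73 ± 0.33, adjusted p = 0.000361), and Dusp6, a feedback phosphatase of ERK signalling (0.40 ± 0.13, adjusted p = 0.027). The second call was lost without DSS with PBS replicate 3 (0.35, adjusted p = 0.0599) or 6 or water replicate 3, 4 or 5. Gdnf stood at 4.94 ± 1.89 CPM in water (SD, n = 5) and 3.90 ± 1.40 CPM under DSS with PBS (SD, n = 6), a difference of -0.34 ± 0.31. Its receptor Gfra1 differed by -0.48 ± 0.33. With either antibody against PBS 0 of the 11 passed; Ret itself is counted among the members.

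Of 6 tested genes of VIP and PACAP signalling, 2 rose under DSS with PBS (median 0.77), where 17.6% of all tested genes rose. Crem, a transcription factor gene induced by cyclic AMP, rose by 1.27 ± 0.18 (adjusted p = 1.05e-05), and Ramp2, a receptor activity-modifying protein, by 0.92 ± 0.27 (adjusted p = 0.012). The VIP receptor gene Vipr1 differed by -0.59 ± 0.25 (adjusted p = 0.0713) and Vipr2 by 0.05 ± 0.33 (adjusted p = 0.929). Crem fell with anti-IL-36R (-0.97 ± 0.15, adjusted p = 0.000446) and with anti-IL-12p40 (-0.68 ± 0.16, adjusted p = 0.036). The second call was lost without DSS with PBS replicate 5 or 6 (-0.56, adjusted p = 0.168) or any of anti-IL-12p40 replicates 1 to 6. The part of VIP or of leukocytes in the level of Crem was not tested. None of 12 enteroendocrine markers passed in these 3 comparisons, and their sum was 257 to 519 CPM in water and 93.4 to 546 CPM under DSS with PBS.

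The members varied together from library to library. After the group means were removed, 26 of the 28 pairs correlated over the 26 colon libraries by both Pearson's r and Spearman's rho (permutation within groups, Benjamini-Hochberg adjusted p under 0.05 over 28 pairs). The r values ran from 0.319 to 0.862 with a median of 0.648, and from 0.35 to 0.825 after the 2 libraries farthest from the median of the first gene were left out. The closest pair was Uchl1 with Snap25 (r = 0.862, rho = 0.83, permutation p = 1e-05 for both, the smallest 100000 permutations can give; adjusted p = 7e-05 and 0.00014). Pairs of neuron genes had a median r of 0.711 (10 of 10 passed), pairs of glia genes 0.581 (3 of 3) and mixed pairs 0.611 (13 of 15). The share of all gene pairs that would pass the same test was not computed. These counts therefore do not show a trait particular to the members.

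Glial Sox10 followed the neuron genes Uchl1 (r = 0.861, rho = 0.8) and Snap25 (r = 0.827, rho = 0.805) more closely by value than glial Gfap (r = 0.581, rho = 0.543) or S100b (r = 0.694, rho = 0.652); the difference between these correlations was not tested. The pairs that missed the threshold were Elavl4 with Gfap (r = 0.368, rho = 0.365, permutation adjusted p = 0.0998 and 0.0965) and Ret with S100b (r = 0.319, rho = 0.339, permutation adjusted p = 0.148 and 0.106). The points share the dissection of each colon piece, and how much muscle wall each held is not given in the sources used here.

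**Figure D5:**
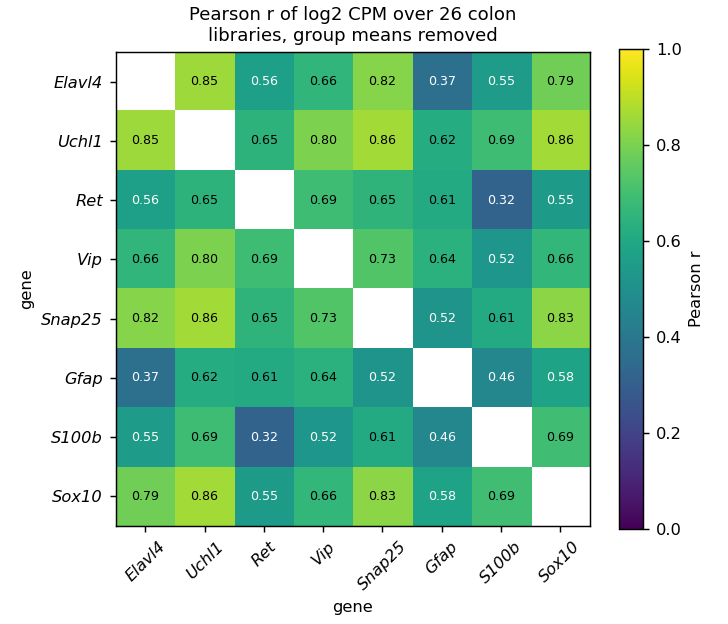
Pearson r between members (both axes list the 8 genes) of log2 CPM over 26 colon libraries after group means were removed; the colour scale runs from 0 to 1. Uchl1 has the highest median r with the other 7 genes, 0.802, and S100b the lowest, 0.549.

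Over 15730 other tested genes, those most alike to each member by the same r are given as a description. Elavl4 was closest to Syt1 (r = 0.916), Kif5a (0.911) and Pirt (0.907), and Uchl1 to Prph (0.945), Kif5a (0.942) and Slc7a14 (0.938). Snap25 was closest to Nsg2 (0.922), Ank2 (0.907) and Syt1 (0.906), and Vip to Penk (0.89), Syt4 (0.889) and Prph (0.869). Ret was closest to Azin2 (0.873), D430019H16Rik (0.864) and Grb10 (0.854). Sox10 was closest to Lgi4 (0.942), a glial secreted protein, Pfn2 (0.928) and Dpysl5 (0.924), S100b to Pnck (0.815), Cdh2 (0.812) and Slc18a2 (0.804), and Gfap to Ggt7 (0.82), Cox6b2 (0.813) and Them6 (0.804).

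In skin Vip, Snap25, Gfap and Elavl4 were at or near 0, Uchl1 was low, and Ret, Sox10 and S100b were measured in every group. The skin and colon tables were normalized separately, so their levels are set side by side with no test. Vip had 0 counts in 21 of 23 skin libraries and 1 count in each of the other 2; 0 counts in the 3 water libraries allow up to 0.0586 CPM, and 0 in the 6 IMQ with PBS libraries up to 0.0305 CPM, covering counting error only. Snap25 had 0 counts in 13 of 23 libraries and at most 2. Gfap had 0 to 4 counts per library. Elavl4 had 1 count over the 3 water libraries, 16 over the 6 of IMQ with PBS, 12 over the 7 of IMQ with anti-IL-36R and 51 over the 7 of IMQ with anti-IL-12p40. Uchl1 group means lay between 0.503 and 0.863 CPM, against 10.61 to 14.85 CPM in colon.

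Ret averaged 7.04 ± 2.21 CPM in water skin (SD, n = 3) and 6.13 to 6.71 CPM in the IMQ groups. Sox10 averaged 5.11 ± 1.33 CPM in water skin (SD, n = 3) and 3.92 to 3.99 CPM in the IMQ groups, beside group means of 3.33 to 4.41 CPM in colon. S100b averaged 1.55 ± 0.64 CPM in water skin (SD, n = 3) and 1.03 to 1.10 CPM in the IMQ groups. Sox10 and S100b also mark melanocytes and Schwann cells, and the 8 melanocyte markers summed to 74.9 to 189 CPM in water skin, 37.0 to 88.5 CPM in IMQ with PBS and 7.10 to 17.2 CPM in colon, where Tyrp1 was at 0 in every library; the part of melanocytes in these levels was not tested. The 8 Schwann cell myelin markers summed to 206.5 to 292.7 CPM in water skin and 144.4 to 191.6 CPM in IMQ with PBS, without overlap, and 1 of them fell. In colon they summed to 447.5 to 567.7 CPM in water and 287 to 513.3 CPM under DSS with PBS. There 5 rose and 2 fell (median 0.61), so most of the list did not follow the sum. Of all tested genes 17.6% rose and 14.7% fell in that comparison. The part of Schwann cells in the levels of S100b and Sox10 was not tested.

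None of the 5 tested members passed in skin. Under IMQ with PBS against water 33% of genes were called, with anti-IL-36R against PBS 4.21% and with anti-IL-12p40 against PBS 8.8%. Under IMQ, Ret differed from water by -0.19 ± 0.27 (adjusted p = 0.624), Sox10 by -0.38 ± 0.27 (adjusted p = 0.272), S100b by -0.57 ± 0.37 (adjusted p = 0.229) and Uchl1 by -0.04 ± 0.52 (adjusted p = 0.963). Elavl4 missed the threshold there too (adjusted p = 0.155); with 1 count in water, its direction was upward and no fold is given. With the antibodies against PBS, Ret differed by -0.02 ± 0.22 and 0.12 ± 0.22, and Elavl4 by -0.64 ± 0.82 (adjusted p = 0.691) and 1.28 ± 0.67 (adjusted p = 0.241). The response of the members in skin was not tested against that in colon.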

How the data were processed

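Messenger RNA of colon and skin was sequenced from strand-specific libraries, per the labels' protocols. Per the submitters' processing notes RSEM and mm10 were used, with no version. The authors deposited 1 table of expected counts per tissue; 17.35% of colon and 16.71% of skin values were not whole, since RSEM splits reads that fit several genes. Of 24475 Entrez IDs, 24375 matched a symbol. After rounding, the main test was the quasi-likelihood F test of edgeR 4.0.16 (R 4.3.3; filterByExpr, TMM, all 4 groups of a tissue in 1 fit), and an SE was obtained by dividing a log2 fold change by the root of its F. TMM factors were 0.91 to 1.09 in colon and 0.833 to 1.08 in skin, and the common biological coefficient of variation 0.29 and 0.201. No library was left out and none was a duplicate within its group (lowest chi-square per degree of freedom 11.21). Correlations used log2 CPM (prior count 2) and 100000 permutations. The script was tested on simulated data.

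The members, lists and comparisons were chosen with earlier results of these data known. All members are named; of each list the text draws on its first 3 measured genes and up to 4 with the lowest p, and for each member the 3 genes most alike. Some genes of the lists are not reported here. Exon lengths came from GENCODE, gene positions and promoters from RefSeq. Alternatives were DESeq2 1.42.0 size factors or its Wald test, limma-voom (limma 3.58.1), no filter, fits of the compared groups alone, marker covariates, skin PBS libraries by run of sample numbers, and leaving out each library. Plots and permutation tests used Python 3.11.15, scipy 1.17.1 and matplotlib 3.10.9.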

Additional observations from a re-analysis of the deposited data

Results flagged for a closer look

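In 3 of 54 checks of a member within a group of 4 to 10 libraries, 1 library lay far from the others by Dixon's criterion, which chance alone meets in about 1 of 20 such groups. Vip in colon was 59.12 CPM in DSS with anti-IL-12p40 replicate 1, with a gap to the next library of 0.584 of the group's range (critical value 0.568). Uchl1 in skin was 1.255 CPM in IMQ with anti-IL-36R replicate 4 (0.633 of the range). Snap25 in skin was 0.1413 CPM, or 2 counts, in IMQ with anti-IL-12p40 replicate 7 (0.577 of the range). No member was compared between tissues by a test.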

How the results depend on the processing

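Over 63 member results and 1228 alternatives, 1172 kept their side of the threshold, 50 calls were lost, 6 were gained and none of those called in either fit reversed; 52 results kept their side throughout. Counts of changed genes moved by over 1.5 times as follows, the cause not being tested. DSS against water (5073 genes) gave 2941 in a fit of those groups alone, and anti-IL-36R against PBS (1039) gave 421 there and 453 by limma-voom. Anti-IL-12p40 against PBS (181) gave 355 by the DESeq2 Wald test and 0 both by limma-voom and in the fit of those groups alone. Against water, limma-voom gave 3972 with anti-IL-36R (1561) and 5028 with anti-IL-12p40 (2712). In skin, anti-IL-36R against PBS (646) gave 1112 by DESeq2, 2750 by limma-voom, 105 with PBS replicates 1 to 3 alone and 52 with replicates 4 to 6 alone; anti-IL-12p40 (1351) gave 2677 by limma-voom, 436 and 229. Leaving out 1 library gave 3990 to 5508 genes for DSS, 439 (without DSS with PBS replicate 6) to 1772 (without replicate 1) for anti-IL-36R, 34 (without replicate 5) to 408 (without replicate 1) for anti-IL-12p40, 981 (without water replicate 1) to 1597 and 1995 to 2770 against water, and in skin 2902 (without water replicate 3) to 5010 for IMQ, 301 (without anti-IL-36R replicate 4) to 1185 (without replicate 7) and 751 (without anti-IL-12p40 replicate 1) to 1803 for the antibodies. The number of correlated pairs was 26 with DESeq2 size factors and 25 without the water libraries. Signs among uncalled member results changed 124 times. No paired analysis was possible because the labels give each library its own number, shared by no other group. In skin, Vip, Snap25 and Gfap had too few counts to pass the low-count filter, so their differences were not tested.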
